A study of Homo sapiens with 36 samples.

Results

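Carboplatin was given to A2780 cis cells, the platinum-resistant line, in complete medium, and RNA-seq libraries 16 to 18 of treated cells (cis carbo) were compared with libraries 13 to 15 of untreated cells (cis). These are 6 of the 36 libraries of the series and were chosen by their labels alone, and 13458 of the 57820 genes in the count table had enough counts to be tested. A2780 is a human ovarian cancer cell line, and cis cells are the resistant counterpart of the parental wt cells, obtained by chronic exposure to cisplatin. They are 1 line, with no other resistant clone beside it. Both groups grew in RPMI medium with serum, serine and glycine, and by their labels they differ only in the drug, whose dose the labels give as 6 M, apparently with a lost prefix of the unit. The methods place experiments at day 5 unless another day is given, and give no other day for the sequencing. The study describes the 3 libraries of a condition as technical replicates, so p-values here measure the spread between libraries and not between independent cultures. Used for comparison were wt cells with and without carboplatin, cis cells without serine and glycine (cis -SG) with and without carboplatin, and cis SSP cells, which grew out of cis cells under serine/glycine deprivation and were here in complete medium, with and without carboplatin. Each of these conditions also has 3 libraries, and none of them is shared with the comparison in cis cells.

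Carboplatin forms platinum adducts and crosslinks between bases of DNA, which block replication and transcription. Cells remove intrastrand adducts mainly by nucleotide excision repair and interstrand crosslinks by the Fanconi anemia and homologous recombination pathways, and mismatch repair proteins take part in sensing platinum damage. DNA damage stabilizes the transcription factor p53, which raises genes of cell cycle arrest, repair and apoptosis, and its target p21 keeps the DREAM repressor complex on promoters of cell cycle genes. Many promoters of mitotic genes carry a short element, the CHR (cell cycle genes homology region), to which that complex binds.

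Total counts on genes ran from 15287889 to 18768404 in the untreated and from 13074937 (library 17) to 17709476 in the carboplatin libraries. The share of counts on no gene was 6.14% to 6.84% without and 7.25% to 8.66% with carboplatin, so that each treated library lay above each untreated one. The part of this difference in the results was not tested. Of 12 markers listed for ovarian cancer cells, 3 reached a mean of 1 CPM, the keratin KRT18 and the mesenchymal markers VIM and CDH2. KRT8 stayed under 1 CPM, and EPCAM, KRT19, CDH1, PAX8, PAX2, SOX17, WT1 and MUC16 were near 0. Markers of leukocytes, endothelium (2 matched) and erythroid cells summed to at most 0.271 CPM per library in each list, and 5 fibroblast markers, mainly COL1A1, to 5.81 to 6.28 CPM without and 3.85 to 4.82 CPM with carboplatin.

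Carboplatin changed many genes of the resistant cells, most of them by small amounts. By the quasi-likelihood test of edgeR, with p-values adjusted after Benjamini and Hochberg, 1247 genes were higher (9.27% of those tested) and 1455 lower (10.8%) at an adjusted p-value under 0.05. The counts of each gene list below are to be read beside these shares. The median absolute log2 fold change of these called genes was 0.20 and the middle 50% lay between 0.139 and 0.321. A change of at least 1 on the log2 scale was seen in 40 genes that rose and 5 that fell, so the large changes were mostly increases. The median over all tested genes was 0.0028. DESeq2 called 568 genes higher and 778 lower, and 1330 of its calls were also called by edgeR. The count fell to 1755 without library 18. With the spread estimated over all 36 libraries it was 218 higher and 183 lower, and 396 of these were among the genes called above. The 36 include libraries 23 and 24 of cis -SG and 25 of cis SSP cells, which stood apart as told below. Their part in this lower count was not tested. As these are bulk samples, a change in the share of cells in a given phase and a change in RNA per cell cannot be told apart.

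The increases were led by targets of p53. CDKN1A (ENSG00000124762, chromosome 6 from 36644237 to 36655114 in GRCh37) encodes the cyclin-dependent kinase inhibitor p21. Its level was 89.8, 91.2 and 90.6 CPM in the untreated libraries and 319, 326 and 321 CPM with carboplatin, where CPM are the counts scaled by library size and TMM over the 6 libraries. The groups did not overlap, as was true of 34.8% of all tested genes, and the log2 fold change was 1.83 (standard error, SE, 0.0297, adjusted p = 1.56e-27, edgeR), a 3.55-fold increase. GDF15 (ENSG00000130513, chromosome 19 from 18485541 to 18499986), a secreted stress cytokine, showed the largest change of the genes named by the rule. It was at 48.7, 45.8 and 41.6 CPM without and 191, 214 and 199 CPM with carboplatin, a log2 fold change of 2.15 (SE 0.0555, adjusted p = 6.10e-11, edgeR). BTG2, an antiproliferative transcriptional cofactor, went from 52.5, 46.4 and 49.5 to 102, 96.7 and 104 CPM. MDM2, the ubiquitin ligase that degrades p53, went from 208, 209 and 207 to 277, 296 and 302 CPM. In these genes the libraries of each group lay close together and apart from the other group, with log2 fold changes of 1.03 (SE 0.0447) for BTG2 and 0.49 (SE 0.0306) for MDM2.

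**Figure D1:**
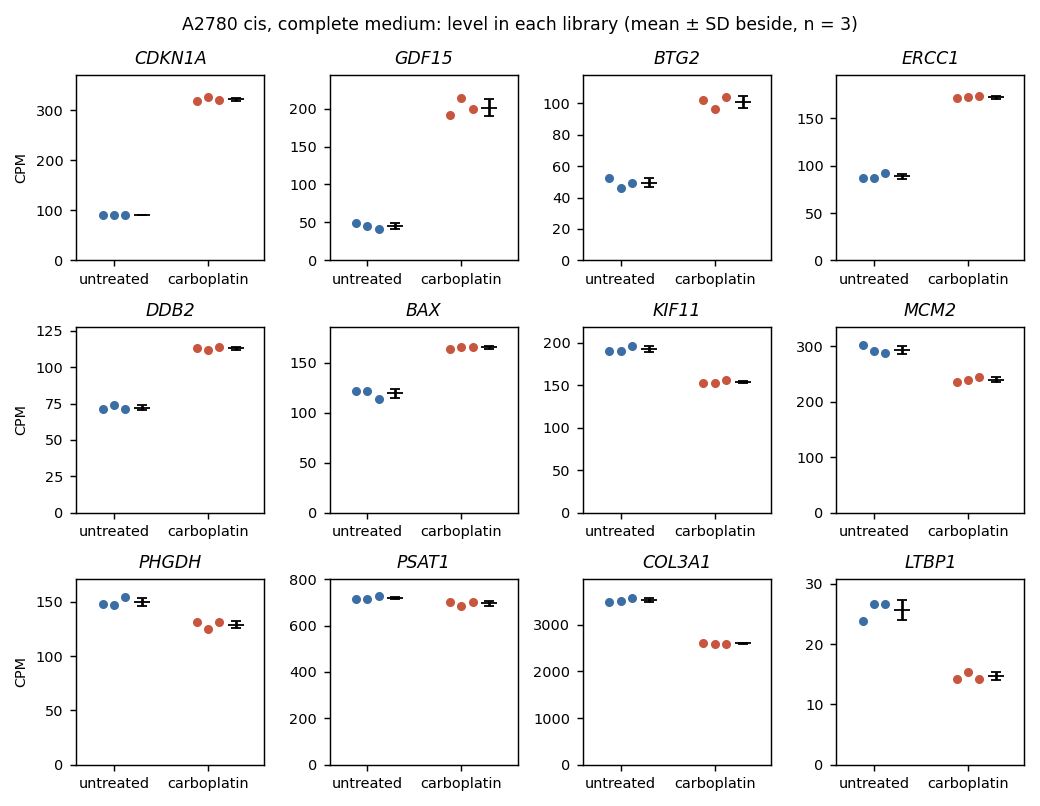
Level of 12 genes in each library of A2780 cis cells in complete medium, in CPM with TMM scaling on axes that start at 0. Blue points are the 3 untreated and red points the 3 carboplatin libraries, with the mean and SD (n = 3) drawn beside them. CDKN1A and GDF15 rose most of the 12, ERCC1 rose 1.94-fold and BTG2 2.05-fold, and PSAT1 moved by little (log2 fold change -0.05).

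Of the 37 p53 targets listed, 34 were tested, of which 31 rose and 0 fell. The counts at an unadjusted p under 0.05 were also 31 and 0, and DESeq2 gave 30 and 0. The median log2 fold change of the list was 0.48. The members that did not pass were TNFRSF10C (-0.07), which encodes a decoy receptor for the death ligand TRAIL, CCNG1 (0.03), a cyclin that acts on MDM2, and APAF1 (-0.00), the scaffold of the apoptosome. Growth arrest and metabolic members that rose included GADD45A (0.84), SESN1 (0.69), TIGAR (0.28) and RRM2B (0.57), the p53-induced subunit of ribonucleotide reductase. The kinases PLK3 (0.78) and PLK2 (0.31) and the phosphatase PPM1D (0.31), which switches the damage response off, rose as well. With 1 library left out 30 or 31 members were called, and 18 with the spread of all 36 libraries.

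Apoptosis genes of the p53 list were among those that rose. BBC3 (PUMA), which binds and neutralizes the anti-apoptotic BCL2 proteins, went from 19.7, 18.6 and 16.5 to 26.8, 31 and 28.8 CPM, a log2 fold change of 0.66 (SE 0.0723). BAX, which permeabilizes the outer mitochondrial membrane, went from 122, 122 and 114 to 164, 166 and 166 CPM (log2 fold change 0.46, SE 0.0328). PMAIP1 (NOXA) rose by 0.55, TNFRSF10B, a death receptor for TRAIL, by 0.35 and FAS, the receptor of FAS ligand, by 0.17 on the log2 scale. Of 14 tested members of the BCL2 family list, 4 rose (BBC3, PMAIP1, BAX and the anti-apoptotic MCL1, 0.11) and 1 fell. The member that fell, BMF, was low throughout, at 1.54 to 1.69 CPM without and 0.682 to 1.29 CPM with carboplatin. Its call (adjusted p = 0.0403, edgeR) was lost in 5 of the 6 leave-one-out fits, those without libraries 13, 14, 15, 16 and 18.

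PURPL, a long non-coding RNA that p53 induces, was among the 10 largest called increases among genes that averaged 50 counts or more per library and whose groups were fully apart. It was at 14, 14.3 and 16.1 CPM without and 34.6, 34.3 and 32.2 CPM with carboplatin, and its log2 fold change was 1.18 (SE 0.0677, adjusted p = 1.21e-13, edgeR). Its promoter is shown because it holds a full match to the p53 consensus site without a spacer, 20 letters that read the same on both strands. Such a full match was found in 0.0183% of 27305 RefSeq promoters of 250 bases before to 50 after the gene start, and a match with at most 2 mismatches in 0.634%. The full match did not mark a rise by itself. Of the tested genes 2 held it, and the other, PTCHD4, had -0.03 (adjusted p = 0.848, edgeR). Of 43 tested genes with at most 2 mismatches, 8 were called higher and 4 lower, where 9.27% and 10.8% of all tested genes were. Of 29 members of the p53 list with a promoter in the table, 1 had a match at that limit, AEN, an exonuclease of apoptosis, which rose by 0.32. The sequences below are from RefSeq on GRCh38.p14, 5′ to 3′ on the strand of the gene, with the p53 site in capitals. The stretch of PURPL is chr5:27472125-27472224 on the plus strand, with the site starting 127 bases before the gene start, and that of AEN is chr15:88621266-88621339 on the plus strand, with the site starting 34 bases before it.
PURPL: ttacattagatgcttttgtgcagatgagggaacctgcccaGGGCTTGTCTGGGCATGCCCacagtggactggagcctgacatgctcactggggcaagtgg
AEN: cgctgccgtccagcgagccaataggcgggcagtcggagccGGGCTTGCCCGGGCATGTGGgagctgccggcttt

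The 10 largest increases within these limits also included INKA2, GRIN2C, ACTA2, CLCF1 and LIF. INKA2, an inhibitor of the kinase PAK4, went from 2.92, 2.45 and 2.70 to 7.04, 8.14 and 6.32 CPM. GRIN2C, a subunit of NMDA-type glutamate receptors, went from 3.57, 4.04 and 4.46 to 8.42, 11.9 and 8.86 CPM. Both were low in untreated cells, with log2 fold changes of 1.41 (SE 0.145) and 1.24 (SE 0.138). Every treated library was above every untreated one, which was a condition for naming them. The cytokine LIF (1.05) and CLCF1 (1.09), another cytokine of the interleukin-6 family, rose too. ACTA2, smooth muscle actin, rose by 1.14, and its exons overlap those of FAS on the other strand. The strand setting of the counting is not stated, so reads of overlapping genes on opposite strands may not be told apart, which applies to 68 of the 151 genes named by the rule. It includes CDKN1A (with DINOL), INKA2 (with DDX20, at -0.08 and not called) and LIF (with 2 antisense RNAs).

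Nucleotide excision repair, the main route for removing platinum adducts, was called in a few members. Of 23 tested genes of the list, 4 rose and 2 fell, where 9.27% of all tested genes were higher and 10.8% lower, with a median of 0.04. With the spread of all 36 libraries 3 rose and 0 fell, and DESeq2 gave 3 and 2. ERCC1 (ENSG00000012061, chromosome 19 from 45910592 to 45982086), the partner of the nuclease XPF that cuts 5′ of the lesion, was at 86.9, 87.5 and 91.9 CPM without and 171, 172 and 174 CPM with carboplatin. This was a 1.94-fold increase, log2 fold change 0.96 (SE 0.0332, adjusted p = 6.94e-19, edgeR). Exons of ERCC1 overlap those of POLR1G on the other strand (log2 fold change 0.20), and the immediate-early gene FOSB, which rose by 0.82, lies within the annotated span of ERCC1. The part of these neighbours in the counts of ERCC1 was not tested. DDB2, a damage sensor of global genome repair and a p53 target, rose from 71.1, 73.9 and 71.0 to 113, 112 and 114 CPM, a log2 fold change of 0.65 (SE 0.0365, adjusted p = 1.02e-13, edgeR). XPC, which recognizes distorted DNA, rose by 0.31 and the helicase ERCC3 by 0.12, while the helicase ERCC2 was among those that fell, by 0.12.

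In the other repair pathways falls outnumbered rises, apart from translesion synthesis. POLH, the polymerase that copies past platinum crosslinks and a p53 target, rose from 46.1, 49.0 and 47.4 to 68.0, 65.0 and 68.7 CPM, a log2 fold change of 0.50 (SE 0.0442, adjusted p = 1.16e-09, edgeR). In its list of 17 tested genes 2 rose (POLH and the ubiquitin-conjugating enzyme UBE2A, 0.14) and 2 fell (the fork remodelers ZRANB3, -0.39, and HLTF, -0.15). Both counts are near the shares over all tested genes, 9.27% higher and 10.8% lower. Of 44 tested genes of Fanconi anemia, homologous recombination and the checkpoint, 1 rose and 10 fell, with a median of -0.05. The 11 calls became 6 without library 18 and 7 without library 13, DESeq2 gave 0 higher and 6 lower, and the spread of all 36 libraries gave 0 and 2. The core complex members FANCC (-0.27) and FANCE (-0.26) and the checkpoint kinase CHEK1 (-0.25) fell furthest of those called, and RAD51C, which acts in homologous recombination, rose by 0.18, a call lost without library 13, 14, 16 or 18. Of 6 tested mismatch repair genes MSH6 (-0.26), the mismatch sensor, and MSH3 (-0.19) fell. MSH3 lost its call without library 14, 15, 16 or 18.

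Genes of mitosis and the G2/M transition fell together, by small amounts. All 32 listed genes were tested, of which 22 fell and 0 rose, also at an unadjusted p under 0.05, and DESeq2 gave 19 and 0. The median log2 fold change was -0.15 and the range of the members ran from -0.32 to 0.01. KIF11, the kinesin that separates the spindle poles, went from 190, 191 and 197 to 153, 153 and 156 CPM, a log2 fold change of -0.32 (SE 0.0300, adjusted p = 3.80e-09, edgeR). HMMR, a spindle protein, and KIF20A, a kinesin of cytokinesis, both had -0.31. CDC20 (-0.27), the activator of the anaphase-promoting complex, CCNB2 (-0.26), a cyclin of mitotic entry, and PLK1 (-0.21), a mitotic kinase, fell too. CDK1 (-0.02, adjusted p = 0.699, edgeR) and MKI67 (-0.11, adjusted p = 0.491, edgeR) did not pass. With 1 library left out 20 to 24 members were called, while 4 were called with the spread of all 36 libraries.

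The CHR letters TTTGAA, on either strand, stood in 18 of 27 promoters of the mitosis list that the RefSeq table holds, against 15.4% of all 27305 promoters of the same length and 9.33% of the promoters of tested genes. Of the 42 promoters of the replication list 1 had it and of the 29 of the p53 list 1. Of the 22 mitosis genes that fell, 18 had a promoter in the table and 13 of these held the letters. As mitotic genes are known for this element, its share in the list does not depend on carboplatin. Among all tested genes with a promoter, 12.9% of those called lower and 8.17% of those called higher held the letters. The promoter stretches of the 4 mitosis genes that fell furthest and hold TTTGAA before the gene start are given to show its place, from RefSeq on GRCh38.p14, 5′ to 3′ on the plus strand, with the letters or their reverse complement in capitals. They are chr10:92593062-92593129 for KIF11, chr5:163460570-163460631 for HMMR, chr1:43358876-43358961 for CDC20 and chr15:59105077-59105145 for CCNB2, and the letters start 28, 22, 65 and 29 bases before the gene start. A match is a description and no proof of a bound site.
KIF11: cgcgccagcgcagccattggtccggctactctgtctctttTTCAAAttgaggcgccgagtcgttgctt
HMMR: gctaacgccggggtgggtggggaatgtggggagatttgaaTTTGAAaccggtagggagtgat
CDC20: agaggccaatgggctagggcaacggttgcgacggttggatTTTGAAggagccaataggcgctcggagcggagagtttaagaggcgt
CCNB2: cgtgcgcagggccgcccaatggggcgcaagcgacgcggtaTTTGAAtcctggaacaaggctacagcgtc

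Genes of DNA replication and S phase also fell, with 3 of the 50 tested rising and 27 falling (median -0.12). The replicative helicase subunit MCM2 went from 301, 291 and 287 to 236, 238 and 245 CPM, a log2 fold change of -0.29 (SE 0.0282, adjusted p = 9.02e-09, edgeR). GINS2, of the same helicase complex, had -0.35 and MCM6 -0.25. The members that rose were PCNA (0.19), the sliding clamp that also serves repair synthesis, RRM2 (0.20), the S phase subunit of ribonucleotide reductase, and CCNE1 (0.14), the cyclin of the G1/S transition. PCNA was at 392, 384 and 402 CPM without and 448, 454 and 444 CPM with carboplatin, and RRM2 at 258, 258 and 262 and at 303, 296 and 292 CPM, with no overlap in either. CCNE1 lost its call without library 14, 16 or 18. DESeq2 called 2 higher and 14 lower, the spread of all 36 libraries gave 1 and 6, and the 30 calls became 19 without library 18.

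**Figure D2:**
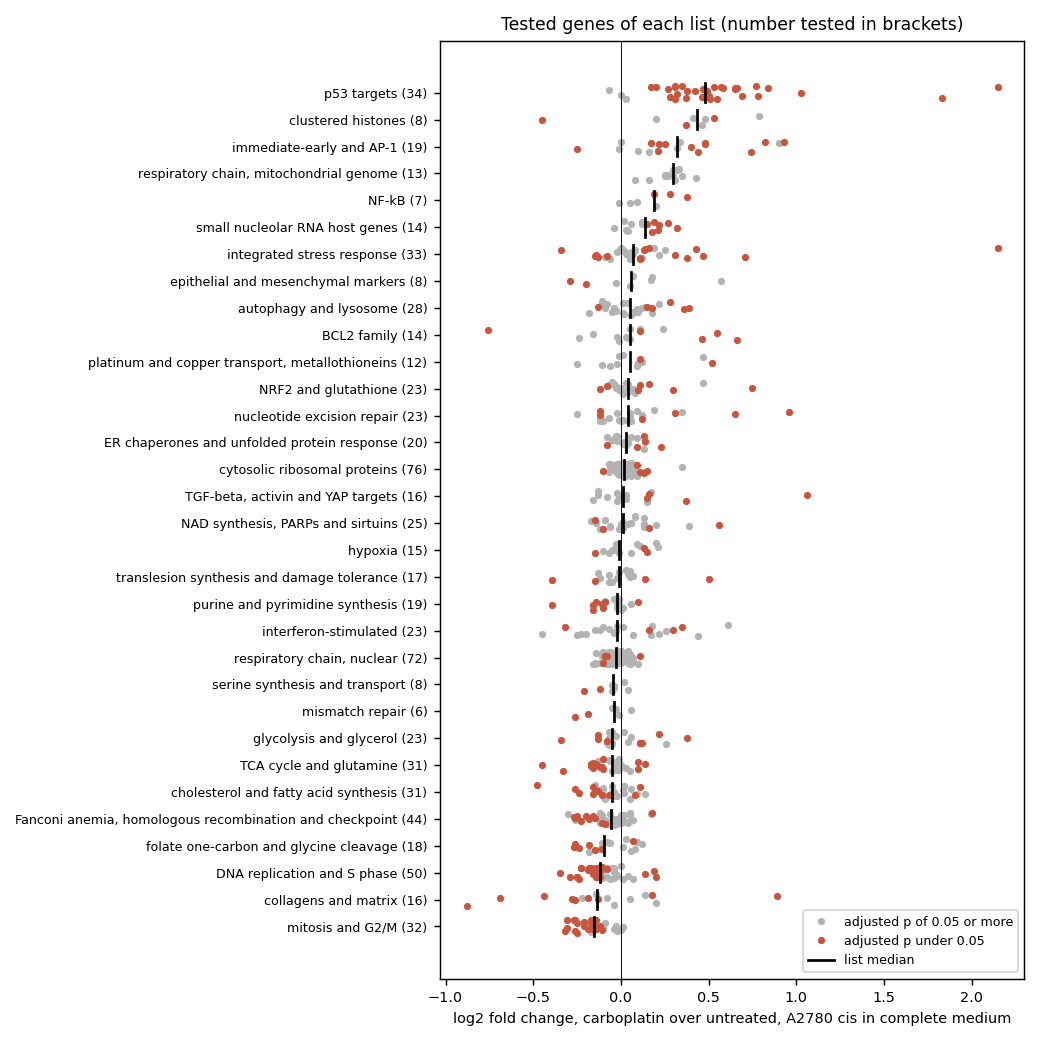
Log2 fold change, carboplatin over untreated, of each tested gene in 32 gene lists in A2780 cis cells, with 1 point per gene and lists ordered by their median (black bar). Red points passed the edgeR test at an adjusted p-value under 0.05 and grey points did not. The p53 targets have the highest median (0.48) and the mitosis and G2/M genes the lowest (-0.15).

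Enzymes of serine synthesis, on which the study centres, changed little with carboplatin in resistant cells. PHGDH (ENSG00000092621), the first enzyme of the pathway, was at 148, 147 and 154 CPM without and 131, 125 and 131 CPM with carboplatin. The groups did not overlap, as in 34.8% of all tested genes, and the log2 fold change was -0.21 (SE 0.0328, adjusted p = 1.79e-05, edgeR). With the spread of all 36 libraries the fall of PHGDH was not called (adjusted p = 0.49, edgeR). The next enzyme, PSAT1, had -0.05 (adjusted p = 0.215, edgeR) and the last, PSPH, 0.02 (adjusted p = 0.761, edgeR). Of the serine and glutamine transporters SLC1A4 fell by 0.12 on the log2 scale (adjusted p = 0.0231, edgeR), a call that DESeq2 (adjusted p = 0.126) and the fits without library 13 or 18 did not make, and SLC1A5 had -0.04 (adjusted p = 0.333, edgeR). In all, 0 of the 8 tested genes of the list rose and 2 fell, with the same counts at an unadjusted p under 0.05. DESeq2 gave 0 and 1, and the spread of all 36 libraries 0 and 0. ATF4, the transcription factor of these enzymes, was at 413, 421 and 422 CPM without and 429, 409 and 413 CPM with carboplatin, so that the groups overlapped (adjusted p = 0.93, edgeR). PARP1, which signals DNA breaks and consumes NAD, had -0.10 (SE 0.0250, adjusted p = 0.00432, edgeR). It was not called with the spread of all 36 libraries (adjusted p = 0.275, edgeR).

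Genes of one-carbon metabolism, which serine feeds, mostly fell where they changed. Of 18 tested, 6 fell and 1 rose, with a median of -0.09. SHMT1 (-0.27), which takes the one-carbon unit from serine in the cytosol, and MTHFD1 (-0.26), which interconverts the folate carriers, fell. The mitochondrial MTHFD2 rose by 0.07, a call that was lost without library 13, 14, 16 or 18. Of 19 tested genes of purine and pyrimidine synthesis 7 fell and 1 rose, among them the CTP synthases CTPS2 (-0.39) and CTPS1 (0.10) in opposite directions. In the tricarboxylic acid cycle and glutamine list 12 of 31 fell and 3 rose. These 15 calls became 8 without library 15 or 18 and 9 without library 14, DESeq2 gave 5 lower and 1 higher, and the spread of all 36 libraries 2 and 0. Pyruvate carboxylase (PC, -0.45) and the cytosolic isocitrate dehydrogenase IDH1 (-0.33) fell furthest, and IDH1 went from 146, 143 and 154 to 119, 117 and 117 CPM. Glycolysis genes split, with SLC2A3, a glucose transporter (0.38), and PKM, pyruvate kinase (0.22), among 5 that rose and PFKFB4 (-0.34) among 4 that fell, of 23 tested. In cholesterol and fatty acid synthesis 8 of 31 fell and 2 rose, with LSS, lanosterol synthase, lowest (-0.48). The 10 calls of this list became 6 without library 14 or 18, DESeq2 gave 6 lower and 0 higher, and the spread of all 36 libraries 2 and 0.

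Stress genes rose in part. Of 33 tested genes of the integrated stress response, 11 rose and 5 fell, with a median of 0.07. The 16 calls became 10 without library 18, DESeq2 gave 7 higher and 2 lower, and the spread of all 36 libraries 4 and 1. The largest rises were GDF15, ATF3 (0.71) and DDIT3 (0.47), of which GDF15 and SESN2 (0.38) are also on the p53 list. The tRNA synthetases AARS1 (-0.13) and MARS1 (-0.08) and the enzyme CTH (-0.15) fell, and CTH kept its call only without library 14 among the 6 leave-one-out fits. HMOX1, heme oxygenase, went from 45.6, 44.3 and 45.6 to 74.1, 78.5 and 75.1 CPM, a log2 fold change of 0.75 (SE 0.0431, adjusted p = 1.28e-13, edgeR). It led 5 rising genes among 23 tested of the NRF2 and glutathione list, of which 2 fell. Over all tested genes the shares were 9.27% higher and 10.8% lower. The 7 calls of that list became 4 without library 18, DESeq2 gave 2 higher and 0 lower, and the spread of all 36 libraries 1 and 0. MT2A, a metallothionein that binds metals including platinum, rose by 0.52, from 4.79 to 5.69 CPM without to 6.99 to 8.49 CPM with carboplatin. The other gene that rose among 12 tested genes of platinum and copper transport and metallothioneins was LRRC8A (0.11), a subunit of an anion channel that takes up platinum drugs, whose call was lost in all 6 leave-one-out fits. These 2 rises, with 0 falls, stand beside the same shares over all tested genes.

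Immediate-early and AP-1 genes rose, 11 of 19 tested against 1 that fell, with a median of 0.32. FOSL1 went from 11.8, 11.3 and 11.4 to 21.2, 22.5 and 21.8 CPM (log2 fold change 0.93), and JUN, its partner in AP-1, rose by 0.48. The transcription factors EGR2 (0.48) and EGR3 (0.74) rose too, while KLF6 fell by 0.25. Of 7 tested NF-kB genes 3 rose, with BIRC3, an inhibitor of apoptosis, at 0.38, and 0 were called with the spread of all 36 libraries. Host genes of small nucleolar RNAs rose in 7 of 14 and fell in 0, with 9 and 0 at an unadjusted p under 0.05. DESeq2 gave 7 and 0, but the spread of all 36 libraries gave 0 and 0. SNHG8 (0.27), SNHG6 (0.22) and EPB41L4A-AS1 (0.32) had the largest changes of these. In ribosomal proteins 4 of 76 rose and 1 fell, and the 5 calls became 2 without library 14 and 15 without library 15. Both counts are below the shares over all tested genes, 9.27% higher and 10.8% lower. The 13 genes of the mitochondrial genome had a median of 0.30 and all were above 0, but none passed the edgeR test, an unadjusted p under 0.05 or DESeq2. MT-ATP8 shows the spread, with 198, 260 and 256 CPM without and 412, 210 and 334 CPM with carboplatin.

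The decreases were smaller and led by genes of varied function. RAB26, a GTPase of secretory vesicles, went from 5.26, 3.88 and 4.95 to 2.52, 2.13 and 2.67 CPM (log2 fold change -0.92, SE 0.167). SLC38A4, an amino acid transporter, went from 4.29, 5.48 and 6.00 to 2.69, 3.35 and 2.54 CPM (log2 fold change -0.91, SE 0.161). LTBP1, which holds latent TGF-beta in the matrix, went from 23.8, 26.6 and 26.7 to 14.3, 15.4 and 14.3 CPM (log2 fold change -0.82, SE 0.0721, adjusted p = 1.04e-09, edgeR). In all 3 the groups did not overlap, which was a condition for naming them and adds no support. WWOX (-0.84), FGD6 (-0.81), STAC2 (-0.77), CACNA2D2 (-0.75), TOX2 (-0.73), MBOAT1 (-0.71) and PLEKHA7 (-0.71) complete the 10 largest called decreases among genes that averaged 50 counts or more per library and whose groups were fully apart, and each was called in all 6 leave-one-out fits. Among 16 tested collagen and matrix genes 7 fell and 2 rose. COL3A1, the chain of type III collagen, was at 3497, 3501 and 3571 CPM without and 2615, 2588 and 2595 CPM with carboplatin, a 1.36-fold decrease (log2 fold change -0.44, SE 0.0232, adjusted p = 2.24e-14, edgeR). COL5A1 (-0.88) fell furthest of the collagens and TNC, tenascin C, rose (0.89). VIM, the intermediate filament vimentin, fell by 0.20.

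The genes that fell tended to be long on the genome, a property chosen for description after the values were seen. The 11697 tested protein-coding genes were cut into 5 bins by their span from start to end. Among the shortest genes (0.207 to 11.2 kb) 7.74% were called lower and 10.9% higher. Among the longest (98.7 to 2242 kb) 17.5% were called lower and 6.54% higher, and the median log2 fold change went from 0.013 to -0.043 between these bins. WWOX, from 78133297 to 79246564 on chromosome 16, and LTBP1, from 33172020 to 33624576 on chromosome 2, belong to the longest. In wt cells the median went from 0.037 to -0.130, and in cis SSP cells without library 25 from 0.034 to -0.060. In cis -SG cells it went from -0.046 to 0.016, and from -0.010 to 0.006 without libraries 23 and 24, which stood apart by their counts on no gene. Without them library 22 is the only treated library left in that condition. By bins of summed exon length the share called lower in cis cells rose from 8.11% to 15.8%, while the share called higher was 8.84% among the shortest and 9.1% among the longest, and the median in wt cells was -0.035 and -0.037.

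**Figure D3:**
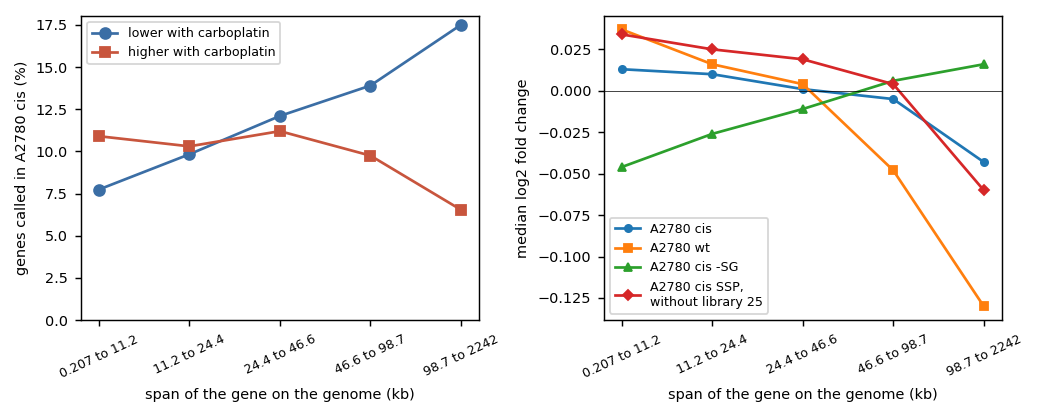
Tested protein-coding genes in 5 bins of genomic span (kb), with 2340 genes in the first and the last bin. Left, percent of genes called lower (blue) or higher (red) with carboplatin in A2780 cis cells, where the lower share rises from 7.74% to 17.5%. Right, the median log2 fold change to carboplatin of each bin in cis, wt, cis -SG (all 6 libraries) and cis SSP cells (without library 25).

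To ask how the response of resistant cells differs from that of sensitive cells, the same treatment was read in wt libraries, where 38.9% of tested genes were called higher and 39.0% lower. The labels give both lines the same dose, while the paper reports that cis cells need more carboplatin than wt cells for the same loss of growth. The part of this in the differences below was not tested. The difference of the 2 responses was tested by an interaction term, which called 30.3% of 15300 genes higher and 27.2% lower in cis than in wt cells. Of the 34 p53 targets, 26 had a lower and 5 a higher response in cis cells, against a median of 0.48 in cis and 1.14 in wt cells. CDKN1A had a log2 fold change of 3.67 in wt cells, and its difference, cis minus wt, was -1.83 (SE 0.0346, adjusted p = 3.61e-46, edgeR). The 5 with a higher response were TNFRSF10C, CCNG1, FBXO22, APAF1 and DDB2. Only DDB2 and FBXO22 (0.20 in cis, -0.03 in wt cells) rose in cis cells. TNFRSF10C, CCNG1 and APAF1 were not called there and fell in wt cells, by 0.54, 0.47 and 0.28 on the log2 scale. DDB2 had 0.09 in wt cells and 0.65 in cis cells, a difference of 0.57 (SE 0.0509, adjusted p = 6.61e-15, edgeR). For ERCC1 the difference was -0.09 (SE 0.0420, adjusted p = 0.066, edgeR), for BAX 0.07 (adjusted p = 0.17, edgeR) and for SESN1 -0.05 (adjusted p = 0.728, edgeR), which did not pass the threshold.

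**Figure D4:**
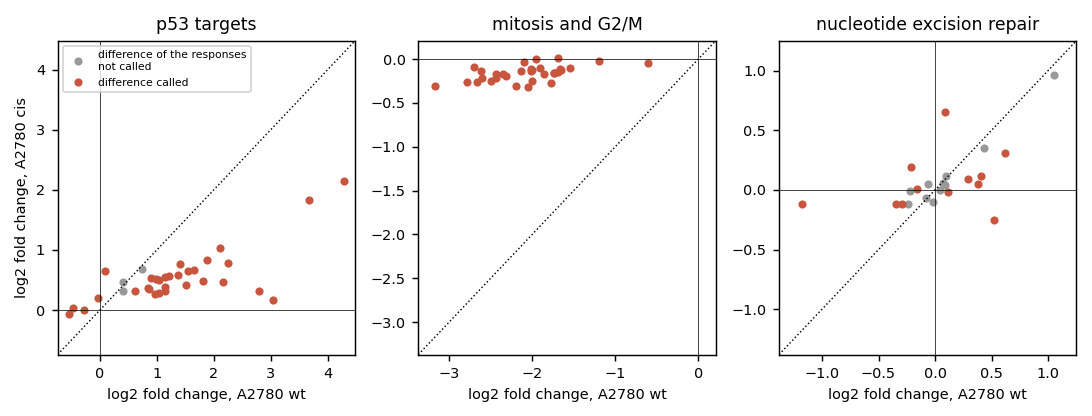
Log2 fold change with carboplatin in A2780 wt (x axis) and A2780 cis cells (y axis) for the tested genes of 3 lists, 1 point per gene, with the dotted line where both are equal. Red points passed the test of the difference of both responses. Mitosis and G2/M genes fell in wt cells to a median of -2.01 against -0.15 in cis cells, and among the p53 targets and the repair genes some points lie on the line.

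All 32 mitosis and G2/M genes fell in wt cells, with a median of -2.01, and all 32 differed from cis cells in the interaction test. KIF20A, for example, had -3.17 in wt and -0.31 in cis cells. Replication genes had a median of -1.16 in wt cells, with 47 of 50 falling. HMOX1 rose by 4.88 on the log2 scale in wt and 0.75 in cis cells, a difference of -4.13 (SE 0.0495, adjusted p = 2.38e-56, edgeR). BIRC3 rose by 4.50 and 0.38, and all 7 tested NF-kB genes rose in wt cells and responded less in cis cells. PHGDH fell by 1.41 in wt against 0.21 in cis cells, a difference of 1.20 (SE 0.0399, adjusted p = 2.85e-34, edgeR). The small nucleolar RNA host genes went apart, with 2 higher and 8 lower in wt cells, and 11 of 14 were higher in cis than in wt by the test of the difference. SNHG6 had -0.45 in wt and 0.22 in cis cells.

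Of the genes called in cis cells and tested in wt cells, 83.7% of 2647 had the same sign there, against 66.6% of all 12921 genes tested in both. Opposite calls in both lines with a called difference were seen for 314 genes with a mean of at least 50 counts, 140 of them higher in cis cells. ATP2B4, a calcium pump of the plasma membrane, fell in cis cells from 147, 147 and 148 to 99.8, 104 and 98.4 CPM (log2 fold change -0.55, SE 0.0331, adjusted p = 2.97e-13, edgeR), and had 0.59 in wt cells. BCAM, a laminin-binding adhesion molecule, had -0.65 in cis and 1.23 in wt cells, and COL1A1, the chain of type I collagen, -0.69 and 2.41. COL1A1 was low in cis cells, at 3.25 to 4.57 CPM without and 2.00 to 3.19 CPM with carboplatin, and lost its call there without library 14, 16 or 18. In the other direction SLC45A3, of a sugar transporter family, had 0.43 in cis and -1.01 in wt cells, and ZNF331, a zinc finger protein, 0.40 and -0.78.

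In cis cells without serine and glycine carboplatin again raised most p53 targets and lowered mitosis genes. There 10.9% of genes were called higher and 11.6% lower, a number that ran from 1666 genes without library 24 to 5224 without library 22. Of the genes called in complete medium 71.7% of 2696 had the same sign, against 59.6% of all 13274 genes tested in both. Of the p53 targets 24 of 34 rose, with a median of 0.32. CDKN1A rose by 1.07 against 1.83 in complete medium and GDF15 by 0.57 against 2.15, while MDM2 rose by 0.60 against 0.49 and DDB2 by 0.58 against 0.65. Of the apoptosis genes named above FAS rose by 0.29, while BBC3 (0.18), BAX (0.03), PMAIP1 (-0.03) and TNFRSF10B (0.05) were not called. The differences between media were not tested. Mitosis genes fell in 30 of 32, with a median of -0.45. The immediate-early list had a median of 0.02 there, with 3 rising and 2 falling. Of the 10 largest decreases in complete medium WWOX (-1.21), TOX2 (-0.50) and MBOAT1 (-0.46) were called lower here. RAB26 (0.69), FGD6 (0.48), STAC2 (0.15), LTBP1 (0.02), CACNA2D2 (-0.06), SLC38A4 (-0.11) and PLEKHA7 (-0.11) were not called. Libraries 23 and 24 of this condition had more counts on no gene than the others, and without both the share with the same sign was 67.9%, against 56.2% of all genes. That share rests on library 22 as the only treated library.

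In cis SSP cells library 25 of the untreated group stood apart, and 377 genes were called with it and 5835 without it, 21.9% of genes higher and 19.2% lower. Without that library, 88.9% of 2672 genes called in cis cells had the same sign in cis SSP cells, against 68.1% of all 13138, and with it the share was 79.9% of 2668. The p53 list had 32 of 34 rising, with a median of 0.76. CDKN1A rose by 2.78 and the difference without library 25, cis minus cis SSP, was -0.95 (adjusted p = 1.78e-19, edgeR). PHGDH had -0.55 in cis SSP cells, and its difference was 0.33 (adjusted p = 5.32e-07, edgeR). For ERCC1 (1.01 in cis SSP cells) the difference was -0.06 (adjusted p = 0.493, edgeR) and for PURPL (1.13) it was 0.05 (adjusted p = 0.805, edgeR). Between the responses of cis and cis SSP cells 73 genes differed with library 25 and 2099 without it, and DESeq2 gave 218 with it.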

How the data were processed

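RNA-seq was analysed from the table of raw counts the authors deposited, 1 count per gene and library. Per the labels and methods, poly-A RNA was sequenced in single reads, aligned with STAR to GRCh37.p13 and counted on exons with HTSeq and GENCODE 19. The strand setting is not given in the sources used here. The row for reads on no gene stayed out of library sizes and tests. Symbols, positions and lengths came from GENCODE 44 mapped to GRCh37, which matched 55538 of 57820 identifiers. Samples were grouped by their labels. The mean chi-square per gene of library pairs within both groups was 2.35 to 10.3, so none was counted as a duplicate.

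Counts were tested with edgeR 4.0.16 in R 4.3.3 on the libraries of the compared conditions: TMM, filterByExpr, robust glmQLFit and glmQLFTest, with Benjamini-Hochberg adjustment over all tested genes and a threshold of 0.05. A standard error is the absolute log2 fold change over the square root of F. DESeq2 1.42.0 (Wald test), which the study names, was an alternative. The code was tested on simulated data. Other alternatives were DESeq2's size factors, total counts, other filters on low counts, protein-coding genes, removal of the length trend, fits of 4 conditions or 36 libraries, size thresholds and each library left out. The members and lists were chosen with earlier results of these data known. Genes named are 9 tested genes of the study's topic, per direction the 10 largest called changes in genes whose groups did not overlap and whose mean was 50 counts or more, at most 3 called per list and direction, and at most 5 per direction that went opposite ways in cis and wt cells. Some genes that the rule names are not reported here. Other genes of the lists are given as examples chosen after their values were seen. Tables were handled with Python 3.11.15 and plots drawn with matplotlib 3.10.9.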

Additional observations from a re-analysis of the deposited data

Results flagged for a closer look

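The responses of cis and wt cells to carboplatin differed in 8807 genes by the interaction test, and those of cis and cis SSP cells in 73 with library 25 of cis SSP cells, 2099 without it and 218 by DESeq2 with it. Among genes that went opposite ways in cis and wt cells, the log2 difference of the responses, cis minus wt, was positive for LINC02941 (1.49), SLC45A3 (1.45), HTR2B (1.27), ZNF331 (1.19) and MAP7D2 (1.16). It was negative for COL1A1 (-3.10), BCAM (-1.87), ATP2B4 (-1.13), NFATC2 (-1.13) and FNDC5 (-1.11). Passing the test of the difference was a condition for naming these 10, so it adds no support. The change in cis cells was not called by DESeq2 for HTR2B, MAP7D2, LINC02941, COL1A1 and FNDC5. It was called for SLC45A3, ZNF331, BCAM, ATP2B4 and NFATC2. Of the 10 genes, LINC02941, FNDC5 and COL1A1 were called in cis cells in 3 of the 6 leave-one-out fits.

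The row of counts on no gene, which no comparison uses, was higher with carboplatin by 1.31 percentage points of the mean share, and its 3 treated libraries lay above the 3 untreated ones.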

How the results depend on the processing

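Within the comparison of cis carbo with cis, the 2702 calls became 1346 with DESeq2, 401 with the spread of all 36 libraries, 302 with a change of 0.5 or more on the log2 scale and 45 with 1 or more, and 1755 (without library 18) to 2554 (without library 17) with 1 library left out. The other alternatives run kept the count within 1.5 times. Of 146 named genes called, 55 were called with all 36 libraries. The number differing between cis and cis SSP responses went from 73 to 218 with DESeq2, 45 with total counts, and 27 (without library 13) to 2099 (without library 25). In cis -SG cells 3253 calls became 2163 with DESeq2 and 1666 (without library 24) to 5224 (without library 22) in leave-one-out fits. In cis SSP cells 377 calls became 723 with DESeq2 and 9 (without library 28) to 5835 (without library 25). These settings for cis -SG, wt and cis SSP cells were added after seeing the data. The share with the same direction in cis -SG cells went from 71.7% to 77.4% for genes changed by at least 0.5 and 67.9% without libraries 23 and 24. The latter leaves library 22 as the only treated one of that condition. The cause was not tested in these cases. ATF4, not called, changed sign in 3 of 6 leave-one-out fits (-0.0247 to 0.0066). For the named genes DESeq2 lost 42 calls and total counts 7, and 121 of 906 leave-one-out values lost theirs. No paired analysis was possible because the labels carry no replicate numbers within a condition. Depth limits what could be called: the smallest called change was 0.07 on the log2 scale, and the median SE was 0.0355 for genes with a mean of 1000 counts or more and 0.272 under 50 counts.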
